A study of Mus musculus with 27 samples.

Results

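Cultured mouse microglia labelled as controls were compared 7 days against 2 days into the experiment, across all genes of 6 RNA libraries. The members are the 3 control libraries of day 7 and the 3 control libraries of day 2, taken by their labels out of 15 RNA libraries and 27 samples in the series. Both groups are wild-type C57BL/6 microglial cells prepared from cortex at postnatal day 1, with the treatment given as Control. The study followed conversion of such microglia into neuron-like cells by a construct labelled ND1, and its design text counts the days from doxycycline treatment. The other RNA groups are ND1-transduced microglia at day 7 and day 2, which received lentivirus encoding ND1 and M2rtTA, doxycycline and a neuronal medium, and cultured cortical neurons. The labels do not state which medium, virus or doxycycline the control cells received, nor how the primary cells were purified. They also do not say whether the 3 libraries of a day came from separate cultures. The p-values here rest on the spread between libraries of the same group, estimated over all 15 RNA libraries. That spread may therefore be technical.

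Microglia are the resident macrophages of the brain, and they depend on signals such as CSF1 and TGF-beta to keep their characteristic expression of P2ry12, Tmem119, Cx3cr1 and Sall1. Pattern recognition receptors of these cells sense microbial products and free nucleic acid, and signal through NF-kappaB to cytokines such as IL-1beta and through interferon regulatory factors to type I interferon. Secreted interferon then acts back on the cells through its receptor to switch on interferon-stimulated genes, and NF-kappaB switches on its own inhibitors.

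The values are FPKM, a read count scaled by transcript length and library size, as the authors deposited them for each library. FPKM sums lay between 679238 and 739846 in the 6 libraries, and 10709 to 11036 genes reached 1 FPKM in each. The files hold no read counts, so the depth behind a value is unknown, and a lower bound for a gene listed at 0 cannot be given. Across tested genes, libraries of the same day correlated at 0.979 to 0.986 and libraries of different days at 0.944 to 0.948 on the log2(FPKM + 1) scale. The median coefficient of variation of genes at 10 FPKM or more was 5.04% at day 7 and 2.73% at day 2.

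The comparison asked how control microglia changed between these days. Of the genes tested in each list, 10 of 20 chemokines, 14 of 35 interferon-stimulated genes, 11 of 14 interferon-inducible GTPases, 15 of 27 NF-kappaB targets and 8 of 21 stress response genes fell. Among the genes that rose were Apoe, 9 of 27 homeostatic microglia genes, among them Trem2 and Csf1r, 4 of 20 of lipid handling, 5 of 18 complement genes, of which 2 fell, and 6 of 9 astrocyte markers. Of 13602 genes tested, 531 rose (3.9%) and 516 fell (3.79%), 7.7% in either direction, where a call needed a limma adjusted p under 0.05 and a log2 change of at least 1 in size. Log2 changes are differences of log2(FPKM + 1), which understate the change of weakly expressed genes. A change of at least 2 on this scale was reached by 87 of the genes that rose and 112 of those that fell. The median change of all tested genes was 0.011. Without the fold threshold, 4598 genes would count as higher and 4358 as lower, 65.8% of those tested. All day 7 libraries lay above all day 2 libraries for 36.2% of tested genes and below them for 33.8%, and among called genes this held for 528 of the 531 that rose and 504 of the 516 that fell. The counts were sensitive to the pseudocount. With 0.1 in place of 1 they were 1115 and 777, and with 5 they were 197 and 260.

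**Figure D1:**
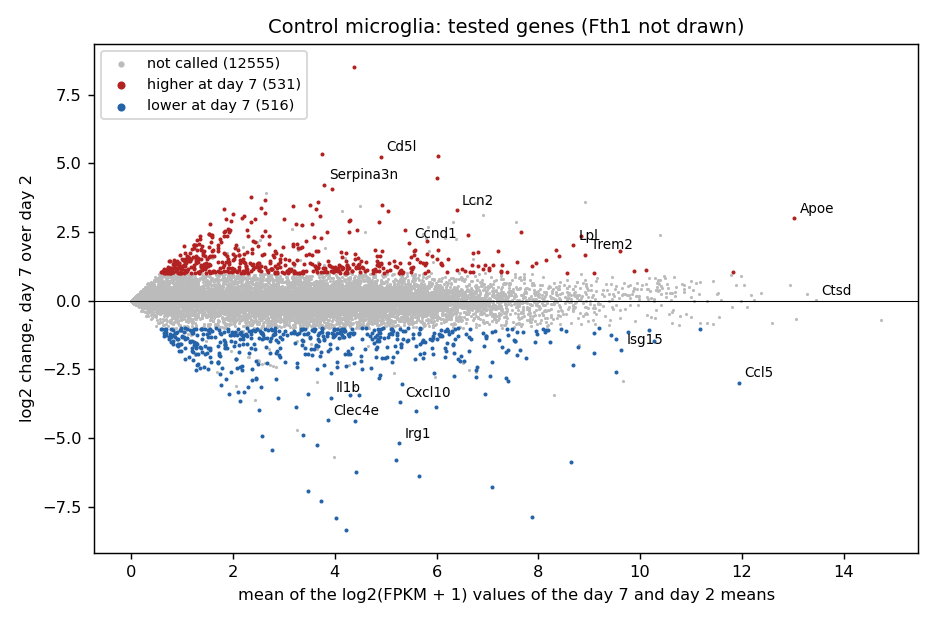
Each point is 1 tested gene in control microglia, with its level on the x axis (mean of log2(FPKM + 1) over the days) and its log2 change, day 7 over day 2, on the y axis. Red points are the 531 genes called higher, of which Fth1 is not drawn, and blue points the 516 called lower. Apoe stands at the far right among the genes that rose and Ccl5 among those that fell.

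The label was first checked against cell type markers. The 12 microglial markers summed to 8217 to 8485 FPKM at day 7 and 4283 to 4408 FPKM at day 2. Most of this sum on both days was C1qa, which was not called. Of the 11 markers tested, 5 rose and 0 were called lower, with 7 log2 changes positive and 4 negative. C1qa, a chain of complement C1q, averaged 4904 ± 58.1 FPKM at day 7 and 2540.4 ± 56.9 FPKM at day 2 (SD, n = 3 each, as in all such pairs), and the fractalkine receptor gene Cx3cr1 averaged 12.5 ± 0.256 FPKM at day 7 and 1.61 ± 0.0465 FPKM at day 2. P2ry12, a purinergic receptor gene of resting microglia, was low on both days, at 11.9, 10.3 and 10.2 FPKM in the day 7 libraries, against 8.75, 10.7 and 9.202 FPKM in the day 2 libraries. Its libraries overlapped between days (log2 change 0.16, SE 0.089, limma adjusted p = 0.131). Tmem119, another resident marker, was lower still: 1.14, 0.959 and 1.14 FPKM in the day 7 libraries, against 0.189, 0.241 and 0.329 FPKM in the day 2 libraries, too low to be tested. Siglech stayed under 0.1 FPKM in all 6 libraries, while Sall1, a transcription factor gene of resident microglia, averaged 5.59 FPKM at day 7 and 7.28 FPKM at day 2. The cells thus had abundant myeloid markers on both days, with the resident markers P2ry12, Tmem119 and Siglech low or near 0.

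Markers of other cells were present at lower levels, and several moved with the day. The 11 astrocyte markers summed to 77.2 to 81.2 FPKM at day 7 and 20.2 to 21.7 FPKM at day 2, and 6 of 9 tested rose, while none fell. Gfap, the astrocyte intermediate filament gene, had 30.1, 23.3 and 23.7 FPKM in the day 7 libraries, against 3.07, 2.56 and 3.02 FPKM in the day 2 libraries (log2 change 2.77, SE 0.101, limma adjusted p = 4.64e-11). Aqp4, the astrocyte water channel gene, averaged 8.44 ± 0.213 FPKM at day 7 and 0.564 ± 0.06795 FPKM at day 2, and Aldoc, Slc1a3, Gja1 and Sox9 also rose (log2 changes 1.896, 1.72, 1.75 and 1.01). The highest day 2 library lay below the lowest day 7 library for each of these genes. Aldh1l1 and Slc1a2 were not called (0.61 and 0.31), and S100b and Gjb6 stayed under 1 FPKM. The 10 fibroblast and mural cell markers summed to 55.1 to 68.5 FPKM at day 7 and 2.77 to 4.497 FPKM at day 2. Smooth muscle actin, Acta2, had 20.7, 22.3 and 19.98 FPKM in the day 7 libraries, against 0.829, 0.616 and 0.719 FPKM in the day 2 libraries (log2 change 3.68, SE 0.08, limma adjusted p = 5.47e-13), and Tagln, an actin-binding protein gene of contractile cells, averaged 29.1 ± 3.38 FPKM at day 7 and 1.75 ± 0.261 FPKM at day 2. Both were high in all 3 day 7 libraries and under 2 FPKM in all day 2 libraries. Thy1, Col1a1 and Col1a2 rose too, with the collagens uneven: Col1a2 had 1.01, 1.25 and 3.75 FPKM in the day 7 libraries, against 0.4302, 0.148 and 0.132 FPKM in the day 2 libraries, and its call ended without day 7 replicate 3 (log2 change 0.79). Fabp7, a fatty acid binding protein gene of radial glia and astrocytes, averaged 28.4 ± 4.78 FPKM at day 7 and 4.92 ± 0.0462 FPKM at day 2, and it led the 6 progenitor markers, which summed to 37.3 to 45.2 FPKM at day 7 and 13.03 to 14.8 FPKM at day 2.

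Neuronal markers were mixed, summing to 25.7 to 34.2 FPKM at day 7 and 29.04 to 33.2 FPKM at day 2. Tubb3 and Dcx fell (log2 changes -1.17 and -1.15), and Stmn2 and Gap43 rose (1.15 and 1.13), with Gap43 not called without day 7 replicate 3 (0.96). In cultured neurons the same 13 genes summed to 3497 to 3806 FPKM. Monocyte and granulocyte markers were nearly absent, at 0.328 to 2.16 FPKM at day 7 and 6.69 to 8.06 FPKM at day 2. Ly6c2, a monocyte surface antigen gene, was listed at 0 in all 3 day 7 libraries and at 2.64, 4.01 and 3.399 FPKM in the day 2 libraries, and S100a8 fell (-1.704), while Cd177 and Mpo were at 0 in all 6. Of 11 lymphocyte markers, Cd3e, Cd3g, Nkg7 and Gzma were among those at 0 in all 6 libraries, and the one that rose, Cd79b, averaged 4.399 FPKM at day 7 and 0.7703 FPKM at day 2. Endothelial markers summed to 8.02 to 9.41 FPKM at day 7 and 22.3 to 23.8 FPKM at day 2, with Cldn5 at 0 in all 6. The endothelial genes Vwf and Kdr fell (-2.004 and -1.03), and Kdr was not called without day 2 replicate 2 or day 7 replicate 1 (-0.999 and -0.976). Oligodendrocyte markers stood at 73.6 to 74.9 FPKM at day 7 and 63.4 to 65.1 FPKM at day 2, mostly from Cnp, and Mbp rose (1.08). In bulk RNA, fewer cells of a type and less RNA per cell cannot be told apart. How much of the changes below came with these shifts in marker levels was not tested.

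**Figure D2:**
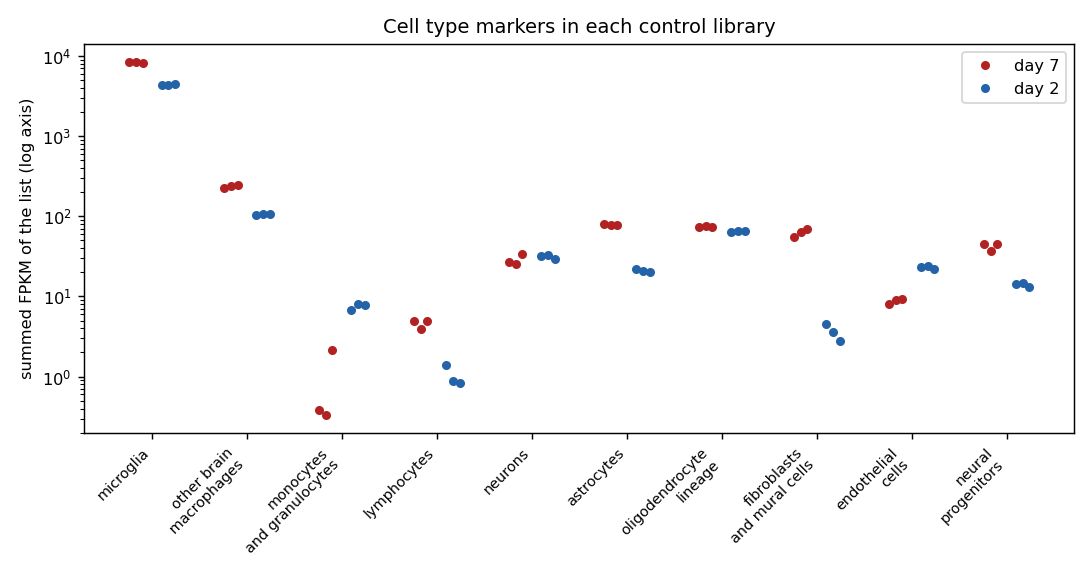
Summed FPKM (log axis) of 10 marker lists, 1 point per control library, with day 7 in red to the left of day 2 in blue. Astrocyte and fibroblast or mural cell markers were higher in all 3 day 7 libraries, at 77.2 to 81.2 FPKM at day 7 and 20.2 to 21.7 FPKM at day 2 for astrocytes, and stayed far below the microglial sum of 8217 to 8485 FPKM at day 7 and 4283 to 4408 FPKM at day 2.

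Among the largest falls was that of Irg1, now named Acod1, which makes the antimicrobial metabolite itaconate in activated macrophages. Irg1 had 5.696, 4.91 and 5.52 FPKM in the day 7 libraries, against 244, 212 and 237 FPKM in the day 2 libraries (log2 change -5.18, SE 0.054, limma adjusted p = 4.53e-16). The 3 day 7 libraries lay far below the 3 day 2 libraries, with no overlap. Clec4e, which encodes the C-type lectin Mincle (mm10 chromosome 6, 123281789 to 123289871), averaged 2.22 ± 0.391 FPKM at day 7 and 64.6 ± 5.03 FPKM at day 2 (log2 change -4.35, SE 0.085, limma adjusted p = 2.27e-13). Gm14446 and the class I-like gene H2-M2 also stood among the 20 largest falls (-5.795 and -4.39), as did the eosinophil-associated ribonuclease gene Ear2 (-3.65), the melanoregulin gene Mreg (-3.15) and Spic, an Ets-family transcription factor gene (-3.15). H2-Q6 ranked high as well, with 0.0113, 0.00848 and 0.0101 FPKM at day 7 and 36.1, 30.3 and 68.7 FPKM at day 2. It belongs to a family of near-identical class I genes among which reads can be split, so its value is uncertain. The pseudogene Atp6v0c-ps2 had 133, 0 and 0 FPKM at day 7 and 1256, 1227 and 1118 FPKM at day 2, and it shares sequence with Atp6v0c, which was also listed at 0 in day 7 replicates 2 and 3.

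Chemokines, the secreted proteins that attract leukocytes, fell in 10 of 20 tested members, and 1 rose. The median log2 change of the list was -0.93. Ccl5, an attractant of T cells and monocytes, was among the 10 most abundant genes by mean FPKM over all 6 libraries. It had 1439.8, 1321 and 1435 FPKM in the day 7 libraries, against 10789, 10982 and 11420.5 FPKM in the day 2 libraries (log2 change -2.98, SE 0.088, limma adjusted p = 6.82e-12). Its share of the FPKM sum was 0.187 to 0.205% in day 7 libraries and 1.58 to 1.65% in day 2 libraries. Cxcl10, a CXCR3 ligand induced by interferon, had 8.88, 8.203 and 12.6 FPKM in the day 7 libraries, against 138, 129.9 and 144 FPKM in the day 2 libraries (log2 change -3.69, SE 0.11, limma adjusted p = 8.28e-12). In both genes the days were well separated. Ccl12 and Ccl2, attractants of CCR2-bearing monocytes, averaged 37.5 ± 8.39 FPKM at day 7 and 401 ± 23.97 FPKM at day 2 for Ccl12 and 40.9 ± 5.22 FPKM at day 7 and 282 ± 12.7 FPKM at day 2 for Ccl2 (log2 changes -3.405 and -2.76). The other falls were those of Cxcl9, Cxcl2, Ccl7, Cxcl11, Ccl6 and Ccl8, between -2.35 and -1.09. Ccl3, at 392 FPKM at day 7 and 455 FPKM at day 2, was not called (log2 change -0.21, limma adjusted p = 0.0882). Cx3cl1, the gene of fractalkine, which neurons are known to make, went the other way but was low, with 2.52, 3.45 and 3.25 FPKM in the day 7 libraries, against 0.241, 0.248 and 0.173 FPKM in the day 2 libraries (log2 change 1.73).

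The promoter of Cxcl10 is shown because it carries matches to 3 of the motifs searched. The window runs from 250 bases before to 50 bases after the start in the RefSeq promoter table (GRCm38.p6, the assembly of mm10), chr5:92348840-92349139, minus strand. Capitals mark, in this order, the interferon-stimulated response element (GAAA, 2 bases of any kind, GAAA) at 213 bases before the start, 2 overlapping NF-kappaB consensus matches at 104 and 103 bases before it, and an AP-1 match (TGANTCA) at 74 bases.
Cxcl10: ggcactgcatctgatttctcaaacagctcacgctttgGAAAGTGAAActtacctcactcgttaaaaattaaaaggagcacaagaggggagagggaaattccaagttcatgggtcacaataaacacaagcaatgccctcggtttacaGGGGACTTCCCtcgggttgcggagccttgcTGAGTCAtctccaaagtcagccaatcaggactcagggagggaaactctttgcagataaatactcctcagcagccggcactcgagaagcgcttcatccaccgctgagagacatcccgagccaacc

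Of 17 cytokine genes tested, 6 fell and 1 rose, with a median log2 change of -0.79. Il1b, the gene of interleukin-1beta (mm10 chromosome 2, 129364569 to 129371164), had 3.57, 3.601 and 3.14 FPKM in the day 7 libraries, against 50.4, 48.4 and 52.4 FPKM in the day 2 libraries (log2 change -3.54, SE 0.055, limma adjusted p = 2.35e-14). Every day 7 library lay far below every day 2 library. Ifnb1, which encodes interferon beta, averaged 1.05 ± 0.376 FPKM at day 7 and 13.4 ± 2.77 FPKM at day 2 (log2 change -2.81, limma adjusted p = 8.29e-10). Il6 had 0, 0 and 0.204 FPKM at day 7 and 3.32, 2.83 and 4.19 FPKM at day 2. Il1rn, the interleukin-1 receptor antagonist gene, Il1a and the TRAIL gene Tnfsf10 fell as well (log2 changes -1.54, -1.41 and -1.18), so both an agonist and its antagonist were lower. Tnf stood at 16.2 FPKM at day 7 and 27.99 FPKM at day 2 and stayed short of the fold threshold (-0.75). The anti-inflammatory cytokine gene Il10 rose, with 3.15 ± 0.464 FPKM at day 7 and 0.971 ± 0.159 FPKM at day 2 (log2 change 1.07, limma adjusted p = 1.13e-07), but its call ended without day 7 replicate 3 (0.99).

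Of 27 NF-kappaB targets and feedback genes, 15 fell and 1 rose, with a median log2 change of -1.03. Nfkbia, which encodes the inhibitor IkappaB-alpha, had 44.4, 43.6 and 42.3 FPKM in the day 7 libraries, against 107, 102 and 109 FPKM in the day 2 libraries (log2 change -1.27, SE 0.042, limma adjusted p = 2.04e-11), with no overlap between days. Saa3, an acute-phase protein gene of macrophages, averaged 299 ± 13.003 FPKM at day 7 and 1822 ± 283 FPKM at day 2, and the adhesion receptor gene Icam1 averaged 25.2 ± 0.648 FPKM at day 7 and 99.04 ± 2.52 FPKM at day 2. The hexose transporter gene Slc2a6, the signalling adaptor gene Traf1, mitochondrial superoxide dismutase Sod2, and the NF-kappaB subunits Nfkb2 and Relb fell too (log2 changes -2.64, -2.12, -1.87, -1.56 and -1.36). The feedback genes Tnfaip3 and Nfkbiz were not called (-0.91 and 0.18). The member that rose was Lcn2, the gene of the iron-siderophore carrier lipocalin 2, which reactive astrocytes also make, with 273, 270.3 and 241 FPKM in the day 7 libraries, against 26.99, 22.5 and 28.3 FPKM in the day 2 libraries (log2 change 3.29, SE 0.11, limma adjusted p = 2.78e-11). Beside it stand the astrocyte marker sums given above, and their part in this value was not tested. Of the pattern recognition receptors and adaptors, 4 of 30 fell: Casp4, a sensor of cytosolic lipopolysaccharide, Tlr1, the TLR4 co-receptor gene Ly96 and Tlr3 (log2 changes -1.62, -1.59, -1.49 and -1.14). Tlr4, Tlr2 and Myd88 were not called (-0.299, -0.14 and 0.047), and Cd14 was higher without reaching the threshold (0.896). Of 11 oxidative burst and nitric oxide genes 3 fell, namely Irg1, the inducible nitric oxide synthase gene Nos2 (-1.45) and Ass1, which feeds arginine synthesis. Ass1 had 1.62, 3.63 and 0.544 FPKM in the day 7 libraries, against 7.90003, 7.796 and 2.56 FPKM in the day 2 libraries (log2 change -1.297, SE 0.41, limma adjusted p = 0.0123). Its libraries overlapped between days, and the call ended without day 2 replicate 1, day 2 replicate 2 or day 7 replicate 3 (-1.07, -1.08 and -0.91).

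Interferon-stimulated genes fell in 14 of 35 cases and none rose. The list had a median log2 change of -0.83. Isg15, a ubiquitin-like protein gene, had 464, 389 and 419 FPKM in the day 7 libraries, against 1459, 1394 and 1514 FPKM in the day 2 libraries (log2 change -1.78, SE 0.11, limma adjusted p = 5.82e-09). The antiviral gene Rsad2, which encodes viperin, averaged 182 ± 10.5 FPKM at day 7 and 913 ± 16.2 FPKM at day 2 (log2 change -2.32, limma adjusted p = 1.36e-11), and Irf7, the interferon regulatory factor that amplifies the response, averaged 739.7 ± 6.43 FPKM at day 7 and 2053 ± 30.5 FPKM at day 2 (log2 change -1.47, limma adjusted p = 8.61e-10). None of these genes had libraries that overlapped between days. Isg20, an RNA exonuclease gene, had the largest change of the list (-2.72), and Mx1, Oasl1 and Mx2 fell with it (-2.24, -2.18 and -2.05). The interferon-inducible GTPases, which attack the vacuoles of intracellular microbes, fell in 11 of 14 cases. They had a median log2 change of -1.24. Gbp2 had 52.4, 48.1 and 50.9 FPKM in the day 7 libraries, against 339, 343 and 340.0 FPKM in the day 2 libraries (log2 change -2.73, SE 0.046, limma adjusted p = 3.9e-14), and Gbp5 and Gbp3 averaged 10.2 FPKM at day 7 and 59.9 FPKM at day 2 for Gbp5 and 29.97 FPKM at day 7 and 118 FPKM at day 2 for Gbp3. Gbp4 and Gbp11, outside the list but among the 20 largest falls, changed by -3.39 and -3.33. Igtp, at -1.05, was just past the threshold and not called without day 7 replicate 2 (-0.998). The guanylate binding proteins are a family of similar genes, and how the counting shared reads among them is not given in the sources used here.

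Chemokines, interferon-stimulated genes and GTPases together had 35 members that fell, of which 23 had a window in the promoter table and 11 of these held a match to the interferon-stimulated response element on either strand. Over the promoters of all 10158 tested genes with a window, 3.16% held this motif. The sites are printed to show how the match varies between these genes, read on the strand that holds it, with the motif in capitals and 5 bases on either side.
Cxcl10: ctttgGAAAGTGAAActtac
Ifit1: agtgaGAAACTGAAActgag
Isg15: aaaccGAAACAGAAAatagc
Rsad2: tttctGAAAATGAAAgttgg
Gbp2: acagtGAAAGTGAAActaaa
Igtp: gaactGAAACTGAAAgctgt
Irgm1: aaataGAAACCGAAActgat
Gbp3: tctggGAAATAGAAActgaa
Gbp5: aaactGAAATTGAAActaca
Gbp7: gaactGAAACTGAAActgca
Tgtp2: gaatcGAAACCGAAAcctac
Of the matches shown, the one nearest to the start lay 24 bases before it in Irgm1 and the farthest 213 bases before it in Cxcl10, and Isg15 held 3 matches, of which 1 is shown. A match is a description of the sequence, not evidence of a bound factor.

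Over all genes that fell, 9.48% of 348 promoters held this motif, against 3.57% of 392 promoters of genes that rose. The 11 promoters above are among the 33 behind the share of 9.48%. The NF-kappaB consensus was in 11.5% of promoters of genes that fell, 8.16% of those that rose and 7% of all tested. AP-1 matches stood at 10.3%, 7.14% and 4.81% in the same order. The PU.1 motif GAGGAAGT, the site of the myeloid factor that sets macrophage enhancers, was in 5.75%, 3.83% and 3.17%. The lysosomal CLEAR motif CACGTGAC was in 4.31%, 2.81% and 4.25%, and the sterol regulatory element TCACNCCAC in 1.15%, 1.79% and 1.02%. The windows also differed in CpG content, with medians of 9.5 CpGs for genes that fell, 17 for those that rose and 21 for those not called. How much of the motif shares came with base composition was not tested. The promoters of Il1b, Clec4e and Isg20 held none of the 6 motifs in this window, which says only that these letters are not there. Isg20 had 3 windows in the promoter table, of which only 1 was searched.

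Of 13 class II and costimulation genes tested, 5 fell and none rose. Cd274, the gene of the inhibitory ligand PD-L1, had 46.8, 47.2 and 48.3 FPKM in the day 7 libraries, against 261, 249.7 and 257 FPKM in the day 2 libraries (log2 change -2.41, SE 0.058, limma adjusted p = 1.15e-12), and Cd40 averaged 1.53 ± 0.432 FPKM at day 7 and 11.5 ± 0.572 FPKM at day 2. These day 7 libraries were all well below those of day 2, and Cd80, H2-Oa and Icosl fell also (-1.76, -1.73 and -1.18). The class II genes H2-Aa, H2-Ab1 and Cd74 stood at 9.62 FPKM at day 7 and 5.43 FPKM at day 2, 3.91 FPKM at day 7 and 3.84 FPKM at day 2, and 30.2 FPKM at day 7 and 37.7 FPKM at day 2, and were not called. Of 19 class I genes, H2-Q7 and H2-Q4 fell (-1.87 and -1.49), with the same caution about near-identical copies as for H2-Q6. The classical gene H2-K1 and the light chain gene B2m moved by -0.59 and -0.68, short of the threshold.

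In the list of unfolded protein and integrated stress response genes, 8 of 21 fell and none rose. The median log2 change was -0.71, with 6 changes positive and 15 negative. Trib3, a pseudokinase gene induced by the transcription factor ATF4, had 5.87, 5.2995 and 6.16 FPKM in the day 7 libraries, against 73.2, 66.3 and 74.6 FPKM in the day 2 libraries (log2 change -3.42, SE 0.072, limma adjusted p = 4.23e-13). Chac1, which degrades glutathione, averaged 0.907 ± 0.263 FPKM at day 7 and 13.1 ± 0.7896 FPKM at day 2, and Ddit3, the gene of the factor CHOP, averaged 246 ± 4.17 FPKM at day 7 and 790.2 ± 17.8 FPKM at day 2. Each of the 3 was lower in every day 7 library than in any day 2 library. Enzymes of amino acid supply fell with them, namely asparagine synthetase Asns (-2.03), Phgdh of serine synthesis (-1.74) and Mthfd2 of mitochondrial folate metabolism (-1.67), and so did the leucine transporter gene Slc7a5 (-2.26) and Sesn2 (-1.18). Atf4 itself and the chaperone gene Hspa5 were not called (-0.75 and -0.38). Nor were the other endoplasmic reticulum stress genes of the list, Hsp90b1, Xbp1, Dnajb9, Herpud1, Edem1 and Sdf2l1. Of 21 redox and iron genes, 1 rose, the ceruloplasmin gene Cp (1.098), and 1 fell. Slc7a11, the cystine-glutamate exchanger gene, was the one that fell and averaged 0.8103 ± 0.122 FPKM at day 7 and 8.89 ± 0.853 FPKM at day 2 (log2 change -2.45, limma adjusted p = 1.1e-11). Immediate early genes were lower in 4 of 22 cases, with Ier3, Junb, Dusp1 and Atf3 between -1.32 and -1.05, while Fos, Egr1 and Jun were not called. Btg2, an antiproliferative gene, rose (1.04), just past the threshold and not without day 2 replicate 1 (0.997).

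Homeostatic microglia genes rose in 9 of 27 tested cases and none fell. Their median log2 change was 0.72. Cx3cr1 had 12.4, 12.4 and 12.8 FPKM in the day 7 libraries, against 1.62, 1.65 and 1.56 FPKM in the day 2 libraries (log2 change 2.37, SE 0.058, limma adjusted p = 1.39e-12), so the fractalkine receptor was several times higher at day 7 while staying a gene of low level. Trem2, a lipid-sensing receptor gene, had 865, 904 and 826 FPKM in the day 7 libraries, against 278, 266 and 269.5 FPKM in the day 2 libraries (log2 change 1.67, SE 0.092, limma adjusted p = 2.7e-09), and Csf1r, the receptor gene for CSF1 and IL-34 on which microglial survival depends, averaged 362 ± 1.15 FPKM at day 7 and 149.6 ± 2.25 FPKM at day 2 (log2 change 1.27, limma adjusted p = 1.47e-08). Fcrls, an Fc receptor-like gene, averaged 224 ± 10.02 FPKM at day 7 and 42.1 ± 1.57 FPKM at day 2. For all 4 genes the libraries of the days did not overlap. Slco2b1 and Crybb1 rose as well (2.400 and 1.07). Sparc, a secreted matrix protein gene of microglia and astrocytes, had the largest change, with 35.2, 39.3 and 41.7 FPKM in the day 7 libraries, against 2.696, 2.87 and 3.11 FPKM in the day 2 libraries (log2 change 3.35, SE 0.093, limma adjusted p = 4.44e-12). P2ry12 and Sall1 did not follow (0.16 and -0.34).

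**Figure D3:**
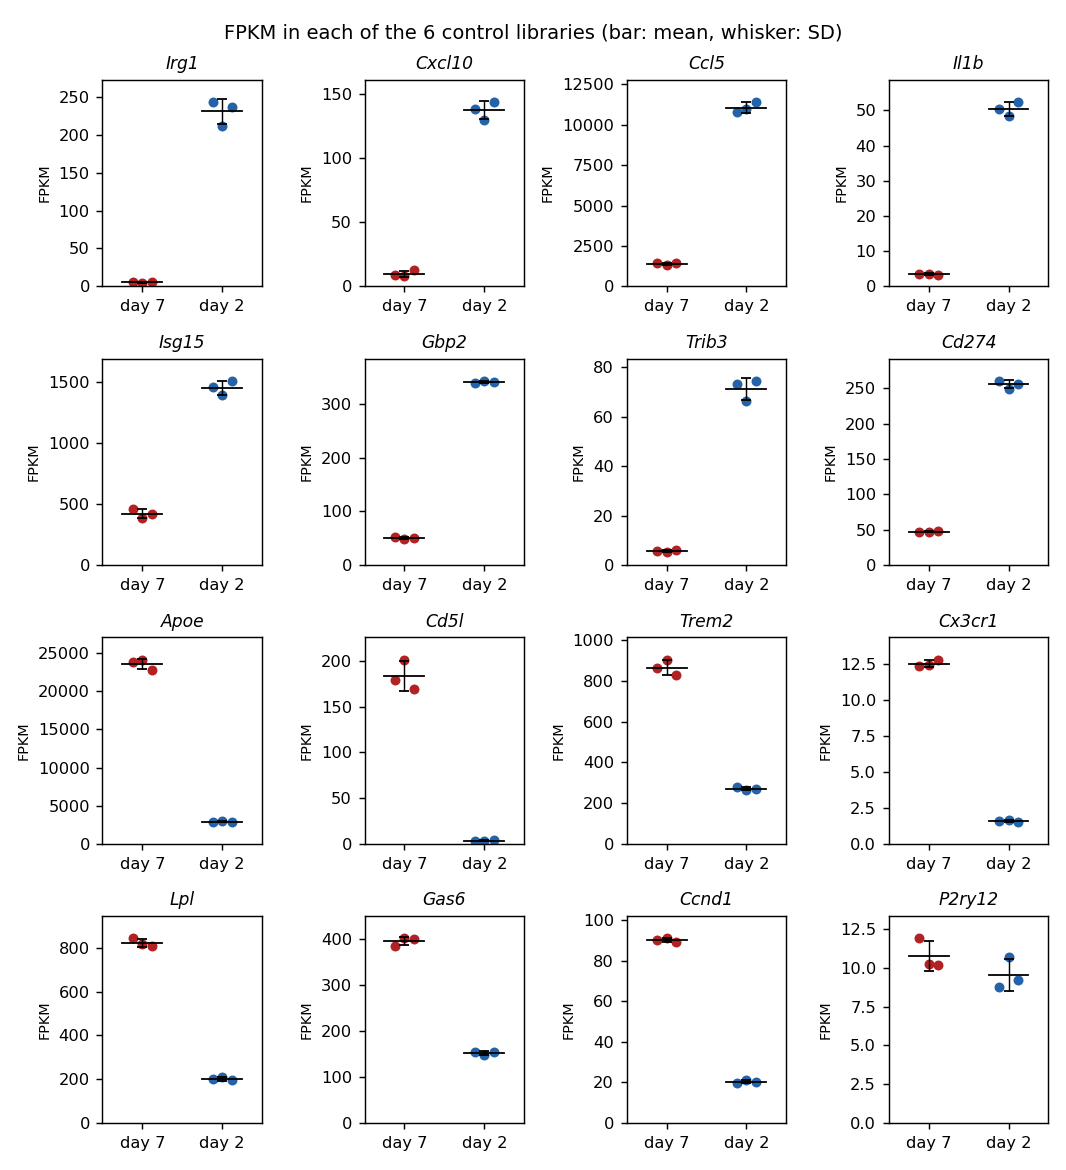
FPKM of 16 genes in the 3 day 7 libraries (red, left) and the 3 day 2 libraries (blue, right), each axis starting at 0, with bars for the mean and whiskers for the SD. The days are apart in 15 of the 16 genes, the upper 8 lower at day 7 and the next 7 higher, and overlap in P2ry12.

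Apoe is the lipoprotein component gene that astrocytes and activated microglia both make (mm10 chromosome 7, 19696244 to 19701310). By mean FPKM over all 6 libraries it had rank 2, which describes the days pooled and not either day alone. It had 23836, 24156 and 22854 FPKM in the day 7 libraries, against 2924, 2956 and 2949 FPKM in the day 2 libraries (log2 change 3.003, SE 0.11, limma adjusted p = 5.95e-11). Its share of the FPKM sum was 3.22 to 3.43% in day 7 libraries and 0.425 to 0.435% in day 2 libraries. The 3 libraries of each day lay close together and the days far apart. Other lipid genes rose beside it: 4 of 20 members of the sterol efflux and lipid handling list rose and none fell. The phospholipid transfer protein gene Pltp averaged 77.02 ± 1.98 FPKM at day 7 and 9.81 ± 0.907 FPKM at day 2, and Apoc1, an apolipoprotein gene next to Apoe, averaged 479.5 ± 32.998 FPKM at day 7 and 82.9 ± 6.68 FPKM at day 2. Abca9 and Scd1 rose by 1.65 and 1.103, whereas the cholesterol exporters Abca1 and Abcg1 and their regulator Nr1h3 were not called (0.29, -0.034 and -0.204). Of 23 cholesterol synthesis and uptake genes, 0 passed limma's test with the fold threshold, with a median log2 change of 0.22.

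Genes of the disease-associated microglia program moved in both directions, 5 up and 5 down out of 24. Apoe, Lpl, Ank and Timp2 rose, and lipoprotein lipase, Lpl, had 844, 817 and 809.8 FPKM in the day 7 libraries, against 199, 211 and 195 FPKM in the day 2 libraries (log2 change 2.03, SE 0.057, limma adjusted p = 4.86e-12). The fifth was Fth1, listed at 0 in all 3 day 2 libraries. Cst7, a cystatin gene, Itgax, the CD11c integrin gene, Ch25h, Cd52 and Fabp5 fell, with 8.82 FPKM at day 7 and 52.96 FPKM at day 2 for Cst7 and 0.672 FPKM at day 7 and 5.52 FPKM at day 2 for Itgax (log2 changes -2.48 and -1.96). Spp1, osteopontin, stood at 1903 FPKM at day 7 and 3369 FPKM at day 2 and was not called (-0.82). The members of this list thus did not move as a block.

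Cd5l, a secreted scavenger protein gene of macrophages, ranked next among the rises after Fth1 and Rps27, whose values are uncertain. Cd5l had 179.5, 201 and 169 FPKM in the day 7 libraries, against 3.62, 3.81 and 4.19 FPKM in the day 2 libraries (log2 change 5.24, SE 0.11, limma adjusted p = 4.2e-13). Of 12 alternative activation genes, 2 rose and 3 fell. Mrc1, the mannose receptor, averaged 82.6 ± 5.902 FPKM at day 7 and 25.6 ± 1.76 FPKM at day 2, and Stab1, the stabilin-1 receptor, averaged 118 ± 8.36 FPKM at day 7 and 25.2 ± 0.822 FPKM at day 2 (log2 changes 1.65 and 2.19). Arg1, Tgm2 and Vegfa fell (-1.498, -1.17 and -1.35), and Chil3 and Retnla stayed under 1 FPKM. The border macrophage markers Lyve1, Cd163 and F13a1 stayed under 1 FPKM in all 6 libraries, and Pf4 was not called (-0.78). The 9 markers of other brain macrophages summed to 224 to 244 FPKM at day 7 and 102 to 108 FPKM at day 2.

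Of 18 complement genes tested, 5 rose and 2 fell. Factor B, Cfb, the protease of the alternative pathway, had 23.9, 24.01 and 27.01 FPKM in the day 7 libraries, against 109.6, 109 and 109 FPKM in the day 2 libraries (log2 change -2.09, SE 0.06, limma adjusted p = 5.92e-12). Every day 7 library lay below every day 2 library. The inhibitors Serping1, Cd55 and Cd59a and the anaphylatoxin receptor gene C5ar1 were 4 of the 5 that rose (1.65, 1.38, 1.23 and 1.06) and did not include the largest rise, and C4b fell (-1.08). C3 and C1qa were not called (-0.899 and 0.95).

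Phagocytic receptors and their bridging molecules also split, with 4 up and 4 down of 25. Gas6 and Pros1, ligands that tie dying cells to the TAM receptors, averaged 396 ± 8.97 FPKM at day 7 and 152 ± 3.77 FPKM at day 2 for Gas6 and 43.2 ± 1.53 FPKM at day 7 and 17.1 ± 0.319 FPKM at day 2 for Pros1. The lipoprotein receptor gene Lrp1 and Stab1 rose with them (1.37 and 2.19). Cd300lf, Timd4, Marco and Fcgr1 fell (-2.19, -1.51, -1.33 and -1.02), the last of these not called without day 7 replicate 2 (-0.96). Mertk, the receptor of Gas6, was not called (0.35). Among chemotactic, purinergic and adhesion receptors, 4 rose and 5 fell of 23. P2ry6, a nucleotide receptor gene linked to phagocytosis, Itgb5, Cxcr4 and S1pr1 rose (1.39, 1.35, 1.16 and 1.097). Ccrl2, Gpr84, Ccr1 and the formyl peptide receptor gene Fpr2 were among those that fell (-2.63, -2.301, -1.66 and -1.65).

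Cyclin D1, Ccnd1, which drives entry into the cell cycle, had 90.1, 90.9 and 89.3 FPKM in the day 7 libraries, against 19.6, 21.01 and 20.3 FPKM in the day 2 libraries (log2 change 2.098, SE 0.068, limma adjusted p = 1.56e-11). It was the one member of 12 D-type cyclins and CDK inhibitors that was called, and the inhibitor gene Cdkn1a stood at 225 FPKM at day 7 and 346 FPKM at day 2 (-0.62). S phase and mitosis genes had a median log2 change of 0.54, with 3 of 29 called, all of them low: Rrm2 averaged 4.78 FPKM at day 7 and 0.599 FPKM at day 2, Tk1 4.02 FPKM at day 7 and 0.668 FPKM at day 2, and Birc5 4.96 FPKM at day 7 and 1.37 FPKM at day 2. The count of this list was 11 with a pseudocount of 0.1, 0 with 5, and 5 without day 2 replicate 1 or without day 7 replicate 2. Mki67, a proliferation marker, was lower without being called (-0.51), so the list was not uniform.

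Matrix proteases and inhibitors moved both ways. Mmp12, macrophage elastase, averaged 101 ± 11.6 FPKM at day 7 and 29.8 ± 1.49 FPKM at day 2, and Timp1 averaged 10.4 ± 2.86 FPKM at day 7 and 1.53 ± 0.208 FPKM at day 2 (log2 changes 1.72 and 2.14), with Timp3 and Timp2 also higher (1.603 and 1.04). Mmp8, a neutrophil collagenase, and the matricellular gene Thbs1 fell, with 1.03 FPKM at day 7 and 13.5 FPKM at day 2 for Mmp8, and 9.96 FPKM at day 7 and 76.8 FPKM at day 2 for Thbs1. Serpinb2 was just past the threshold (-1.03) and not called without day 2 replicate 3 or day 7 replicate 1 (-0.992 and -0.956).

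Lysosomal genes had 1 rise and 1 fall (Ctsk, -1.895) in 34, and Ctsd, the cathepsin D gene, stood at 11267 FPKM at day 7 and 11107 FPKM at day 2 (log2 change 0.02, limma adjusted p = 0.872). Of 26 glycolysis and hypoxia genes, Adm, Slc16a1 and Pfkm rose (1.53, 1.26 and 1.22) and Vegfa fell. Of 24 myeloid transcription factor genes, 1 rose and 2 fell, with falls of Bhlhe40 and Batf (-2.35 and -1.16). Spi1, which encodes PU.1, and Irf8 and Runx1 were not called (-0.23, 0.498 and 0.33). Receptors followed no single direction: Ifngr1 rose with Csf1r (1.07), and the common gamma chain gene Il2rg fell (-1.68), with Csf2ra and Il13ra1 just past the threshold (-1.01 and -1.02) and not called without single libraries. Ms4a4c had the larger of 2 falls in the MS4A family (-2.91).

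**Figure D4:**
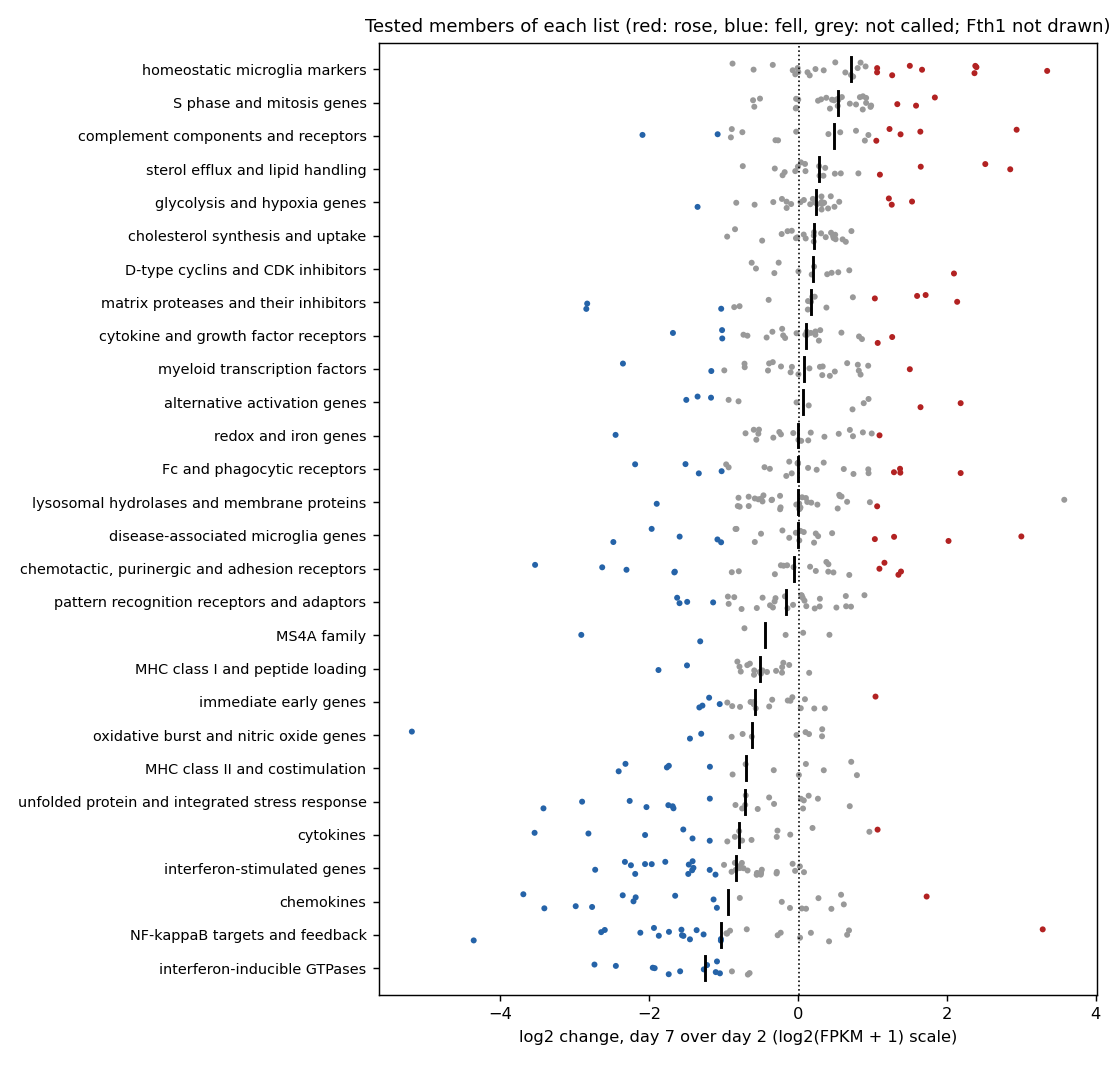
Log2 changes, day 7 over day 2, of the tested members of 28 gene lists, ordered by median from highest to lowest, with 1 point per gene and a black bar at the list median. Fth1 is not drawn but enters the median of its list. The dotted line is the median of all tested genes, 0.011. Homeostatic microglia markers stand at the top (median 0.72) and interferon-inducible GTPases at the bottom (median -1.24). The grey point at 3.58 among lysosomal genes is Lipa, listed at 0 in 1 day 2 library.

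Among the 20 largest rises were several genes that astrocytes are known to express. Serpina3n, a protease inhibitor gene, had 59.8, 64.3 and 52.3 FPKM in the day 7 libraries, against 2.35, 2.18 and 2.02 FPKM in the day 2 libraries (log2 change 4.23, SE 0.099, limma adjusted p = 8.79e-13). Clusterin, Clu, averaged 42.9 ± 0.785 FPKM at day 7 and 2.68 ± 0.0892 FPKM at day 2, the metallothionein gene Mt3 averaged 100.2 ± 5.73 FPKM at day 7 and 8.12 ± 0.667 FPKM at day 2, and Mlc1, a membrane protein gene of astrocyte endfeet, averaged 11.9 ± 0.683 FPKM at day 7 and 0.583 ± 0.0792 FPKM at day 2. All 4 lay higher in each day 7 library, by log2 changes of 3.02 to 4.23, beside astrocyte marker sums of 77.2 to 81.2 FPKM at day 7 and 20.2 to 21.7 FPKM at day 2. The insulin-like growth factor binding protein genes Igfbp2, Igfbp4 and Igfbp3 belonged to the same 20 (4.07, 3.47 and 3.38), as did Acta2 and Tagln. The rest were Hpgd, which breaks down prostaglandins (3.78), Chil1 (3.34), Fxyd2, a sodium pump subunit (3.18), 1500015O10Rik (3.16), S100a16 (3.08), Cd5l, Sparc, Lcn2, Apoe, Fth1 and Rps27. The ribosomal protein gene Rps27 varied widely, with 971, 280.2 and 144 FPKM at day 7 and 8.85, 5.84 and 9.53 FPKM at day 2, and other ribosomal protein copies in the genome can share its reads, so its value is uncertain.

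Some exact zeros were not ordinary low values. Fth1, the ferritin heavy chain gene, was listed at 23848, 23058 and 22024 FPKM in the day 7 libraries and at 0 in all 3 day 2 libraries. It is a gene that nearly every cell uses, and its partner Ftl1, the light chain gene, stood at 20651, 22444 and 21066 FPKM in the day 7 libraries, against 34916, 33568 and 35876 FPKM in the day 2 libraries. In all, 164 symbols were at 0 in a control library and at 10 FPKM or more in another, 20 of them outside small RNA genes, among them Canx, Nono and Lipa, so an exact 0 can stand for a failed estimate. Without these symbols, an alternative chosen after the data were seen, 524 genes rose and 497 fell. By the rule of at least 5 FPKM on average at one day and under 0.5 FPKM in every library of the other, 11 genes were on at day 7 and 8 at day 2. Those of day 7 included Hpgd, Igfbp7, Chil1, Slco2b1 and the myosin light chain gene Myl9, with Fth1 among them for its zeros. Those of day 2 included Serpina3f and Serpina3g, which encode serine protease inhibitors, and the guanylate binding protein gene Gbp2b. The 8 also held Morf4l2, which was listed at 0 in all 3 day 7 libraries and at 0, 91.1 and 0 FPKM in the day 2 libraries, so 1 library carries it. Serpina3g had 0.496, 0.442 and 0.365 FPKM in the day 7 libraries, against 20.4, 22.005 and 22.03 FPKM in the day 2 libraries, and Serpina3f averaged 0.163 FPKM at day 7 and 11.2 FPKM at day 2. They lie on chromosome 12 with Serpina3n, which moved the other way. Among the most abundant genes, Tmsb4x, Ctsd, Lyz2, Eef1a1, B2m, Psap and Ftl1 changed by -0.81 to 0.57, and none was called.

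A bisulfite sequencing library of control microglia gave CpG methylation. Its label gives no day, so it describes control microglia once and cannot show whether methylation changed between the days. The file gives a methylated fraction per CpG with no read count, so the depth behind each value is unknown. Promoter windows with at least 3 listed CpGs had a median methylated fraction of 0.0226 for genes that rose (358 windows), 0.0160 for genes that fell (269) and 0.0106 for genes not called (8997). Windows with a mean over 0.5 made up 9.497%, 9.29% and 3.80% of these sets. CpG content also differed, with medians of 17, 9.5 and 21 CpGs per window. These medians are over all windows of each set (392, 348 and 9418), including those with fewer than 3 listed CpGs. The Cxcl10 window shown above had a mean fraction of 0.0142 over 10 CpGs, and Il1b 0.460 over 3. Sparc, the homeostatic marker with the largest rise, is shown as the opposite case, with a mean of 0.760 over its 4 CpGs, which are in capitals (chr11:55420031-55420330, minus strand, GRCm38.p6).
Sparc: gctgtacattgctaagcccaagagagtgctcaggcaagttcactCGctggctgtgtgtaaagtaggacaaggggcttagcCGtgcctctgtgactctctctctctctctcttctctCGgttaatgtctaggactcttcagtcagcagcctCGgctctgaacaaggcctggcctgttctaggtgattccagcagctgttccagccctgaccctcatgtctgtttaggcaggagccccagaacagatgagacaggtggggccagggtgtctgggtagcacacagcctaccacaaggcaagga

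The same interval in ND1-transduced cells shows where control microglia stood apart, and the 2 contrasts share no library. In ND1 cells 3075 genes rose (22.6%) and 2867 fell (21.1%) between these days, 43.7% in either direction. Of the 516 genes that fell in control cells, 383 (74.2%) also fell in ND1 cells, which is 13.4% of the genes that fell there, and 18 rose. Of the 531 that rose in control cells, 179 (33.7%) rose in ND1 cells, 5.82% of the genes that rose there, and 94 fell. The difference of the day effects was called for 298 of the genes that rose and 260 of those that fell in control cells, beside 41.3% of all tested genes. Genes picked by their change in control cells carry that change, with a minus sign, in the difference. The choice itself thus favours called differences of the opposite sign. Clec4e, Slfn4 and Ear2 fell by nearly the same amount in both (-4.35, -3.88 and -3.65 in control cells, -4.44, -4.002 and -3.68 in ND1 cells), and the difference was not called. Apoe moved in opposite directions. In ND1 cells it averaged 788 FPKM at day 7 and 2087 FPKM at day 2 (log2 change -1.42), and the difference to control cells was called (difference -4.42, SE 0.16, limma adjusted p = 8.05e-12). Cd5l changed by 5.24 in control cells and -0.15 in ND1 cells (difference -5.39, SE 0.15, limma adjusted p = 1.26e-12). Igfbp2, Acta2, Tagln and Sparc rose in both, by 2.12, 2.01, 1.71 and 1.82 in ND1 cells, and the rises in control cells were larger by a called difference. The labels do not give the virus, doxycycline or medium of control cells, so the factor and these conditions cannot be told apart here.

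**Figure D5:**
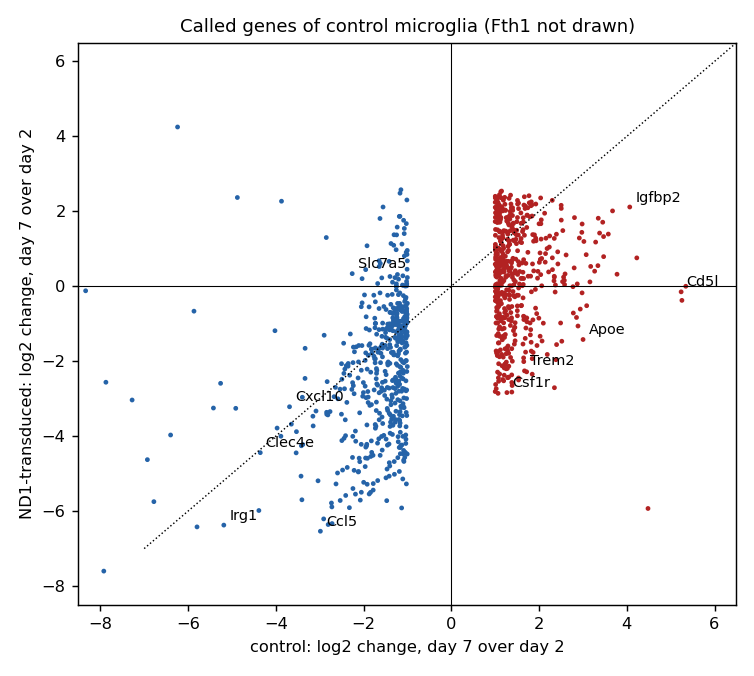
The 1047 genes called in control microglia, without Fth1, with the log2 change, day 7 over day 2, in control cells on the x axis and in ND1-transduced cells on the y axis. The dotted line marks equal changes. Points that fell in control cells (blue) lie mostly below 0 on the y axis, where 383 of 516 were called lower, and points that rose (red) lie on both sides of it.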

How the data were processed

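RNA was measured in 15 libraries, of which the 3 control microglia libraries of day 7 and the 3 of day 2 are described here. The authors deposited FPKM per gene and library. Per the submitters' processing notes, they used TopHat, Bowtie2, Cuffdiff and Cufflinks with mm10, versions not given. The methylated fraction per CpG of 1 control library was used as deposited by the authors, tools not given in the sources used here. Each RNA table lists 24293 symbols, of which 24161 matched RefSeq, 1120 by synonym.

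The 13602 genes that reached 1 FPKM in 3 or more of the 15 libraries were fitted as log2(FPKM + 1) with limma 3.58.1 in R 4.3.3, with 5 group means, a variance trend and no replicate block. Calls needed a Benjamini-Hochberg adjusted p under 0.05 over all tested genes and an absolute log2 change of at least 1. The fit was tested on simulated data.

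Lists numbered 38 with 737 entries, of which 734 were found. They, the tests and the genes described were chosen with earlier results of these data known. Named genes were the 20 largest called rises and falls with a mean of at least 10 FPKM on the higher day and no overlap between days, leaving out small RNA genes, the first 4 members of each list and its 4 largest called changes in each direction, all cell type markers, and the 10 most abundant genes. Genes on at one day only are a description without a test. Promoter windows and gene coordinates come from RefSeq tables of GRCm38.p6; 1 window per gene was used and all 192785 listed CpG positions in them fell on CG. Alternatives changed the pseudocount, the filter, the scaling, the fold threshold, the libraries in the fit, and the replicate block, or left out each library in turn. The chromatin immunoprecipitation samples and the ND1 methylation library were not analysed here. Some genes that the rule names are not reported here.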

Additional observations from a re-analysis of the deposited data

Results flagged for a closer look

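The day effects in ND1-transduced and control microglia differed, by the interaction term of the limma fit (adjusted p under 0.05 and a difference of at least 1 in size), for 5616 of 13602 genes: it was higher in ND1 cells for 2790 and lower for 2826. The genes named next were picked by their change in control cells, which enters the difference with a minus sign. That choice itself favours negative differences among the largest rises and positive ones among the largest falls. Among the 20 largest rises of control cells the difference, ND1 minus control, was -5.63 for Rps27, whose values vary widely, -5.39 for Cd5l, -4.42 for Apoe, -3.47 for Serpina3n, -3.46 for Hpgd and -3.04 for 1500015O10Rik. It was -2.68 for Mt3, -2.65 for Fxyd2, -2.23 for S100a16, -2.19 for Clu, -2.15 for Igfbp4 and -2.11 for Lcn2. It was smaller in size for Igfbp3 (-1.96), Igfbp2 (-1.95), Mlc1 (-1.83), Tagln (-1.74), Acta2 (-1.66) and Sparc (-1.53). Among the 20 largest falls, the day effect was more negative in ND1 cells for Ccl12 (-2.29), Slfn1 (-2.15), H2-M2 (-1.60) and Irg1 (-1.19), and less negative for H2-Q6 (2.17), whose reads can be split among near-identical genes. Groups of 3 libraries were not tested for single libraries that stand apart.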

How the results depend on the processing

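Against 531 genes higher and 516 lower at day 7, a pseudocount of 0.1 gave 1115 and 777, a pseudocount of 5 gave 197 and 260, and no fold threshold gave 4598 and 4358. For the difference of the day effect (2790 higher, 2826 lower), a pseudocount of 5 gave 1579 and 1880 and no fold threshold gave 6294 and 5327. Leaving out each control library in turn gave 517 to 553 higher and 503 to 508 lower, and 2788 to 2801 and 2817 to 2835 for the difference. With replicate number as a block the counts were 531 and 514 for the day and 2790 and 2827 for the difference. Libraries of equal number did not deviate together (r = 0.00555, -0.0321 and -0.0991 over genes). These values give no sign of pairing by number, but they cannot exclude that libraries of equal number share a culture. Of 173 called genes named or listed, 116 kept their call in every setting that tested them and 57 lost it in at least 1 of 14 settings, 51 of them with a pseudocount of 5, 14 after quantile normalization and 3 after median-of-ratios scaling. In these settings 0 called genes changed direction. Of 102 genes not called, 6 became called in some setting. The filter of 5 FPKM left some low genes untested. Without read counts, the precision of low values is unknown, and exact zeros limit any statement on the genes that hold them.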

Other observations

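The gene families given here were picked out after their values were seen. Over all tested genes, 3.9% rose and 3.79% fell. All 5 tested insulin-like growth factor binding protein genes rose, with a median log2 change of 3.38, and so did all 3 calponin genes, which encode actin-binding proteins (median 2.505). Mt2 and Mt3 of the 3 metallothionein genes rose, and Cryab, Hspb1 and Hspb8 of 6 small heat shock protein genes. These rises stand beside the higher astrocyte and mural cell marker sums at day 7, and the part of those cells was not tested. Of 7 schlafen genes 3 fell, and of 6 paired immunoglobulin-like receptor genes 3 fell. Ifi205, Pyhin1 and Mnda fell of 7 tested genes of the PYHIN family of nucleic acid sensors. Slc7a1, Slc7a5 and Slc7a11 fell of 11 amino acid transporter genes, where 5 log2 changes were positive and 6 negative. Bhlhe40 and Ciart fell of 12 circadian regulators, where 5 were positive and 7 negative.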
